A study of Mus musculus with 12 samples.

Results

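The mRNA levels of 9 cyclins of the dividing cell cycle were followed through adipogenic induction of 3T3-L1 cells, with and without knockdown of Fto. The set was chosen with earlier results of these data known. Its members were taken by gene symbol, not by a rule on measured values: Ccnd1, Ccnd2 and Ccnd3 (D type), Ccne1 and Ccne2 (E type), Ccna2 (A type), Ccnb1 and Ccnb2 (B type) and Ccnf (F type). Each symbol stood in 1 row among the 55487 genes of the table, and all 9 cyclins were among the 15968 genes kept for testing, which had to reach 1 TPM in 2 or more libraries. TPM gives a gene's share of all transcripts in a library, corrected for length, so levels of different genes can be set side by side on this scale.

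3T3-L1 is an established mouse fibroblast line that turns into fat-storing cells after hormonal induction. The cells carried a lentiviral hairpin against Fto (shFTO), which encodes an RNA demethylase of N6-methyladenosine, or a scrambled control hairpin (shScram), and both lines had been selected with puromycin. They were collected as confluent preadipocytes (Pre), at mitotic clonal expansion (MCE) after feeding with the MDI induction medium, and as differentiated cells (Diff) after a further culture in serum and insulin. Each of the 6 groups had 2 libraries. Which of the study's hairpins against Fto the sequenced shFTO line carried was not given in the sources used here, and 1 line per hairpin means that line and knockdown cannot be told apart. Nothing in the labels says that the 2 libraries of a group came from separate cultures, so the p-values measure only the spread between these libraries, which may be technical.

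Cyclins are the regulatory subunits of the cyclin-dependent kinases (CDKs). D type cyclins couple growth signals to CDK4 and CDK6 in G1, E type cyclins act with CDK2 at the entry into S phase, cyclin A2 acts in S phase and on the way to mitosis, and B type cyclins drive mitosis with CDK1. Cyclin F is different in kind, since it is the substrate receptor of an SCF ubiquitin ligase and activates no kinase. In confluent 3T3-L1 cells, induction is known to bring the arrested preadipocytes back into the cycle for a few rounds of division before fat genes are switched on, and the cells then leave the cycle for good.

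Fto itself checked the labels. The shScram libraries held between 52.7 and 73.5 TPM of Fto and the shFTO libraries between 5.51 and 7.47 TPM, so every shFTO library lay below every shScram library. The mean log2(TPM + 1) difference of Fto was -3.09 across stages, with p = 0.00926 in an exact permutation test (two-sided, labels exchanged inside each stage), and none of the 216 arrangements can give a smaller one. Replicate 1 of shScram at Diff bears conflicting labels, with shScram in its title and Fto knockdown in its treatment entry. It was assigned by its title, and its 73.5 TPM of Fto lay among the shScram values. The 2 shScram preadipocyte libraries stood apart from each other: across genes, which are not independent replicates, their log2(TPM + 1) values correlated at 0.939, against 0.990 to 0.993 in the other groups. Their difference also ran with the GC content of the genes (Spearman's rho -0.69 across 15928 genes, against -0.20 to 0.36 in the other pairs). Values under a correction for GC content, chosen after seeing the data, are given below, and beyond them its part in the results was not tested. Calls that were lost or gained without either of them are therefore given with each cyclin. In bulk RNA, fewer dividing cells and less cyclin mRNA per cell cannot be told apart.

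The 9 cyclins spanned a wide range of levels. Over the 12 libraries, Ccnd1, Ccnd2 and Ccnd3 lay between 21.3 and 422 TPM, Ccna2, Ccnb1 and Ccnb2 between 13.5 and 126 TPM, Ccnf between 6.84 and 35.0 TPM, and Ccne1 and Ccne2 between 5.06 and 53.1 TPM. Their germline relatives Ccna1 and Ccnb3 were listed at 0 in every library, apart from 0.0230 TPM of Ccnb3 in 1 shFTO library at Diff.

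**Figure D1:**
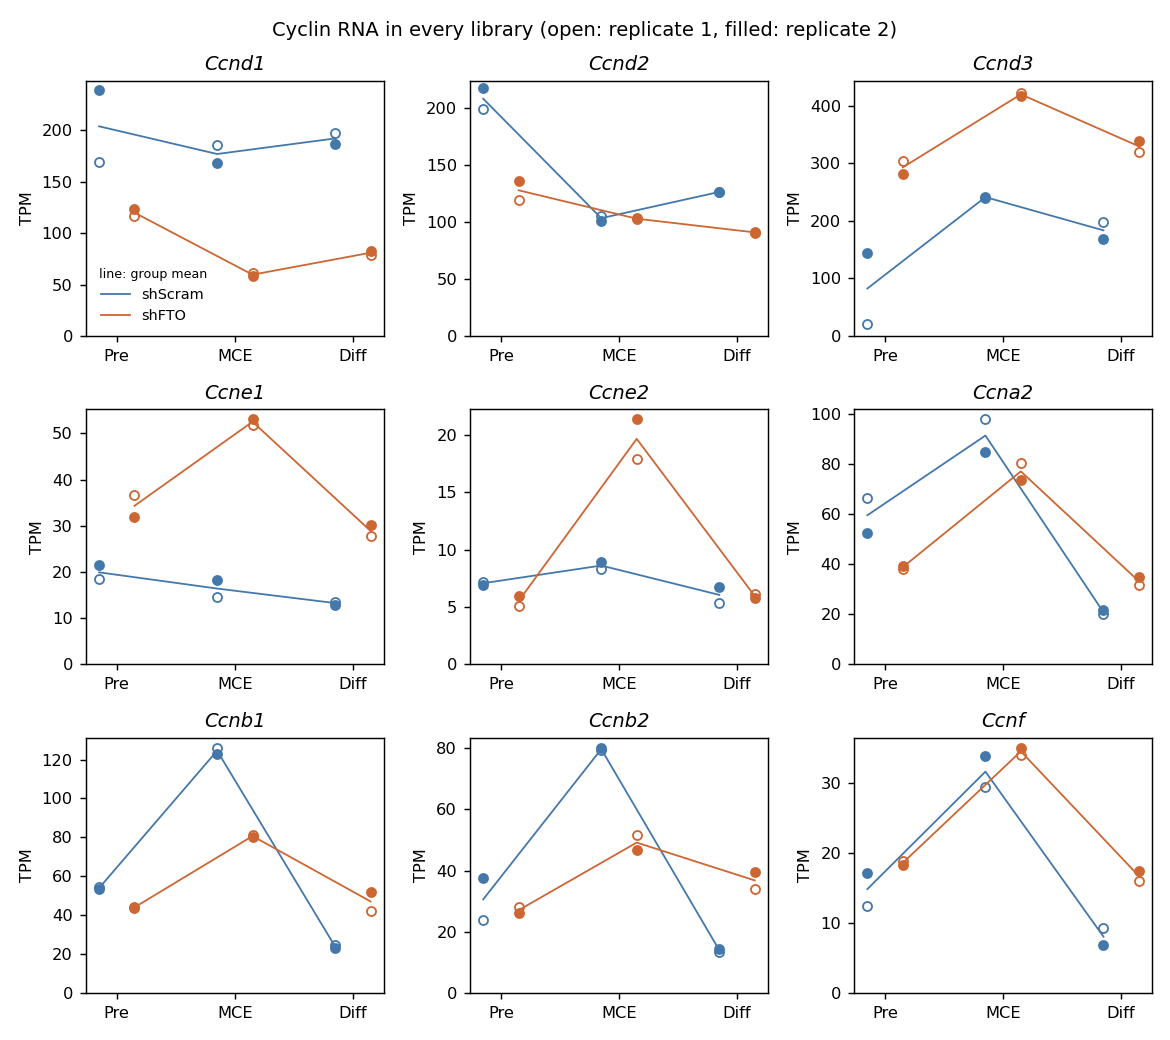
TPM of each cyclin (vertical axes, each starting at 0) in the 12 libraries, by stage (horizontal axis) and line; points are single libraries and lines join the group means. Ccna2, Ccnb1, Ccnb2 and Ccnf peaked at MCE in both lines, Ccne1 and Ccnd3 were higher in shFTO at every stage, and Ccnd1 was lower.

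Which cyclins differ between the lines at each stage was asked first. In preadipocytes 5 of the 9 cyclins differed (limma, Benjamini-Hochberg adjusted p under 0.05), with Ccnd3 and Ccne1 higher in shFTO and Ccnd1, Ccnd2 and Ccna2 lower, and 28.2% of all genes tested were called in this comparison. At MCE 5 differed, with Ccne1 and Ccne2 higher and Ccnd1, Ccnb1 and Ccnb2 lower, against 17.8% of all genes. At Diff 7 differed, with Ccne1, Ccna2, Ccnb1, Ccnb2 and Ccnf higher and Ccnd1 and Ccnd2 lower, against 21.2% of all genes. Ccnd1 and Ccne1 were called at all 3 stages, in opposite directions. The median difference over the 9 cyclins was -0.29 in preadipocytes, -0.01 at MCE and 0.85 at Diff on the log2(TPM + 1) scale, beside 0.08, 0.05 and 0.03 over all genes tested.

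**Figure D2:**
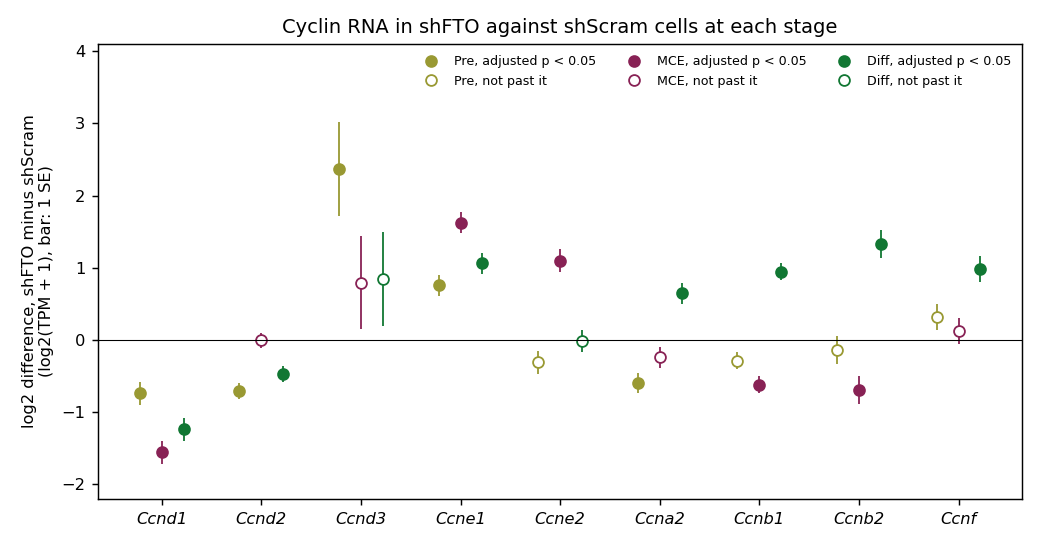
Difference between shFTO and shScram in log2(TPM + 1) for each cyclin at Pre, MCE and Diff; bars are standard errors of the limma fit and filled points passed an adjusted p of 0.05. Ccne1 lay above 0 and Ccnd1 below 0 at each stage, and the mitotic cyclins lay at or below 0 in preadipocytes and at MCE, apart from Ccnf, and above 0 at Diff.

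The counts between the lines depended on the libraries used. In preadipocytes 6 cyclins were called without replicate 1 of shScram (Ccnb2 in addition, as lower), where 4607 of 15803 genes were called. Without replicate 2 there were 7 (Ccnb1 in addition as lower and Ccnf as higher), but 9991 of 15830 genes were called. Without replicate 1 or 2 of the shFTO preadipocytes 1 and 2 cyclins were called. In a fit of only the 4 preadipocyte libraries limma called 0 of the 9, while 3 had an unadjusted p under 0.05, and it called 0 of all 15968 genes. At MCE 3 were called without either shFTO library or replicate 1 of shScram. At Diff 4 were called without replicate 2 of either line, and 5 without replicate 1 of shScram, the library with conflicting labels, with 4 higher and 1 lower.

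Which cyclins move with the stages was asked within each line. From Pre to MCE in shScram cells 6 cyclins changed, Ccnd3, Ccna2, Ccnb1, Ccnb2 and Ccnf upward and Ccnd2 downward, in a comparison where 39.1% of all genes were called. In shFTO cells 7 changed over the same step, Ccne1, Ccne2, Ccna2, Ccnb1, Ccnb2 and Ccnf upward and Ccnd1 downward, against 28.7% of all genes. From MCE to Diff in shScram cells Ccna2, Ccnb1, Ccnb2 and Ccnf fell, which is 4 of 9 against 25.2% of all genes. In shFTO cells 5 fell over this step, namely Ccne1, Ccne2, Ccna2, Ccnb1 and Ccnf, against 26.7% of all genes. Between Pre and Diff 6 fell in shScram cells (Ccnd2, Ccne1, Ccna2, Ccnb1, Ccnb2 and Ccnf, 27.1% of all genes called) and 2 in shFTO cells (Ccnd1 and Ccnd2, 18.3% called).

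Some of these stage calls hung on single libraries. In shFTO cells the fall of Ccnd1 between Pre and Diff (-0.56, limma adjusted p = 0.0383) was lost without any 1 of the 10 libraries outside the shScram preadipocytes (adjusted p = 0.0604 to 0.181), and that of Ccnd2 (-0.48, adjusted p = 0.0146) without either shFTO Diff library or replicate 2 of the shFTO preadipocytes (adjusted p = 0.0894 to 0.114). In shScram cells the fall of Ccne1 between Pre and Diff (-0.55, limma adjusted p = 0.0224) was lost without either Diff library (adjusted p = 0.0914 to 0.111), and that of Ccnf (-0.81, adjusted p = 0.0112) without replicate 2 at Diff (adjusted p = 0.0877). From Pre to MCE, Ccna2 in shScram cells (0.62, limma adjusted p = 0.00952) lost its call without replicate 1 at MCE (adjusted p = 0.0680). In shFTO cells the rises of Ccne1, Ccnb2 and Ccnf over this step were lost without 1 of 3, 2 and 2 libraries, all of them shFTO libraries of Pre or MCE (limma adjusted p = 0.0725 to 0.105, 0.0750 to 0.0798 and 0.0523 to 0.0546). Without either shScram preadipocyte library 7 cyclins were called from MCE to Diff in shScram and 8 in shFTO cells, beside 8295 to 8301 and 8112 to 8120 of all genes, and without replicate 2 of the shFTO preadipocytes 4 were called in shFTO cells from Pre to MCE. In a fit of only the libraries compared, limma called 0 of the 9 cyclins for shScram from Pre to MCE and 0 from Pre to Diff, each with 4 at an unadjusted p under 0.05, and 9 for shFTO from MCE to Diff. Over all 15968 genes these fits called 504, 414 and 8684.

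The difference between the lines in each step was tested itself. From Pre to MCE the step differed for 3 cyclins, Ccnd2, Ccne1 and Ccne2, all with the more positive step in shFTO cells, and 5.11% of all genes were called. From MCE to Diff it differed for 3 cyclins, Ccnb1 and Ccnb2 with the less negative step in shFTO cells and Ccne2 with the more negative one, and 2.49% of all genes were called. Leaving out any 1 of the 10 libraries outside the shScram preadipocytes left 0 or 1 call from Pre to MCE and 2, Ccnb1 and Ccnb2, from MCE to Diff, whereas leaving out replicate 1 or 2 of the shScram preadipocytes gave 4 or 7 from Pre to MCE and 7 either way from MCE to Diff. The genes called rose with them, from 816 to 2257 or 8359 for the first step and from 397 to 2737 or 2739 for the second. These comparisons share libraries, so the counts are not independent of each other. The steps of the whole transcriptome were not centred on 0: the median over all genes was -0.17 and -0.18 from Pre to MCE and 0.23 and 0.17 from MCE to Diff in shScram and shFTO cells, so a falling mitotic cyclin moved against the median from MCE to Diff.

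Ccnd1 (ENSMUSG00000070348; GRCm38 chromosome 7, 144929931 to 144939925) encodes cyclin D1, the growth factor-responsive partner of CDK4 and CDK6. In shScram cells its libraries held 169 and 239 TPM in preadipocytes, 185 and 168 TPM at MCE, and 197 and 187 TPM at Diff. In shFTO cells they held 117 and 123 TPM in preadipocytes, 61.2 and 58.0 TPM at MCE, and 79.1 and 82.7 TPM at Diff. Every shFTO library lay below every shScram library, and the shScram groups overlapped or nearly touched while the shFTO groups were apart from each other. The shFTO mean was 58.8% of the shScram mean in preadipocytes, 33.7% at MCE and 42.1% at Diff. Ccnd1 was lower in shFTO by a log2 difference of -0.74 (SE 0.16, limma adjusted p = 0.0121), -1.55 (SE 0.16, adjusted p = 0.000271) and -1.24 (SE 0.16, adjusted p = 0.000767) at the successive stages. Within shFTO cells it fell from Pre to MCE by 1.00 on the log2 scale (SE 0.16, limma adjusted p = 0.00166), whereas the value for the same step in shScram cells was -0.18 (SE 0.16, adjusted p = 0.379). That shScram value was -0.43 without replicate 1 of the preadipocytes, called as a fall (limma adjusted p = 0.00248), and 0.065 without replicate 2. Likewise the shScram value between Pre and Diff was called without replicate 1 (-0.31, limma adjusted p = 0.0169), and the rise in shFTO cells from MCE to Diff (0.44) without either (adjusted p = 0.000633 to 0.000645). The Pre to MCE steps of the lines differed by -0.81 (SE 0.22), which missed the threshold (limma adjusted p = 0.0753). This difference passed it without either shScram preadipocyte library (-0.56 without replicate 1 and -1.06 without replicate 2). The preadipocyte call was lost without either shFTO preadipocyte library (limma adjusted p = 0.0543 to 0.0820), and without replicate 2 of shScram the difference was -0.49. An exon stretch of 1100 bases overlaps LTO1 on the opposite strand, which held 11.4 to 25.5 TPM, and whether reads were assigned by strand was not given in the sources used here.

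Ccnd2 (ENSMUSG00000000184; chromosome 6, 127125162 to 127152193) encodes cyclin D2, another CDK4 and CDK6 partner. In shScram cells it stood at 199 and 217 TPM in preadipocytes, 106 and 101.1 TPM at MCE, and 127 and 126 TPM at Diff. The shFTO libraries held 119 and 136 TPM, then 102.3 and 104 TPM, then 90.7 and 91.2 TPM. Its level in shScram preadipocytes was above all other libraries, and at MCE the lines overlapped. Ccnd2 was lower in shFTO in preadipocytes (-0.70, SE 0.11, limma adjusted p = 0.00324) and at Diff (-0.47, SE 0.11, adjusted p = 0.0151), and the difference at MCE was -0.01 (SE 0.11, adjusted p = 0.986). It fell from Pre to MCE by 1.00 in shScram cells (SE 0.11, limma adjusted p = 0.000188), and the value in shFTO cells was -0.31 (SE 0.11, adjusted p = 0.0649), called as a fall without either shScram preadipocyte library (adjusted p = 0.00486 to 0.00488). The same held for its value in shScram cells from MCE to Diff (0.29, limma adjusted p = 0.00735 to 0.00736) and the difference between the lines in that step (-0.47, adjusted p = 0.0126 to 0.0127). The Pre to MCE steps of the lines differed by 0.69 (SE 0.15, limma adjusted p = 0.0377). That call was lost without any 1 of the 10 libraries outside the shScram preadipocytes (differences of 0.60 to 0.79). The Diff call was lost without any 1 of the 4 Diff libraries (limma adjusted p = 0.0871 to 0.0920). Among its antisense neighbours, Gm43126 and 9330179D12Rik, no library held more than 2.32 TPM.

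Ccnd3 (ENSMUSG00000034165; chromosome 17, 47505051 to 47599691) encodes cyclin D3, which is known to remain in differentiated cells of several tissues. Its shScram libraries held 21.3 and 144 TPM in preadipocytes, 240.3 and 242 TPM at MCE, and 198 and 169 TPM at Diff. Its shFTO libraries held 304 and 281 TPM in preadipocytes, 422 and 416 TPM at MCE, and 320.2 and 338 TPM at Diff. All 6 shFTO libraries were above all 6 shScram libraries, and no neighbouring groups in the order of their means overlapped. The shFTO mean was 3.55-fold, 1.74-fold and 1.80-fold the shScram mean at the successive stages. Since the fit shares its spread over all groups, the wide shScram preadipocyte pair gave Ccnd3 an SE of 0.65, and of the knockdown differences the one in preadipocytes was called (2.37, limma adjusted p = 0.0289), while those at MCE (0.80, adjusted p = 0.477) and Diff (0.85, adjusted p = 0.41) were not. Without replicate 1 of the shScram preadipocytes the SE fell to 0.10 in preadipocytes and 0.08 at MCE and Diff. The 3 differences were then 1.02 (limma adjusted p = 7.92e-05), 0.80 (adjusted p = 3.26e-05) and 0.85 (adjusted p = 2.01e-05). Without replicate 2 the preadipocyte difference was 3.72 (limma adjusted p = 7.9e-09) and the other 2 were also called. Without either shFTO preadipocyte library the preadipocyte call was lost (limma adjusted p = 0.103 to 0.133). The rise from Pre to MCE in shScram cells rested on the same pair, with 2.09 in all libraries (SE 0.65, limma adjusted p = 0.0318), 0.74 without replicate 1 and 3.44 without replicate 2, and it was lost without either shScram MCE library or either shFTO preadipocyte library (adjusted p = 0.0509 to 0.122). The difference between the lines in this step was -1.57 (SE 0.92, limma adjusted p = 0.324), -0.22 without replicate 1 (adjusted p = 0.28) and -2.92 without replicate 2 (adjusted p = 2.72e-07). Without either library of that pair Ccnd3 was also called as rising from Pre to MCE in shFTO cells (0.52, limma adjusted p = 0.000378 to 0.000379), as falling from MCE to Diff in shScram (-0.40, adjusted p = 0.00241) and shFTO cells (-0.35, adjusted p = 0.00471), and as rising between Pre and Diff in shScram cells (0.35 and 3.04). The Ccnd3 transcripts had the highest GC content of the 9 cyclins, 56.7%, and its opposite-strand neighbour Bysl, which shares 361 exonic bases, held 13.5 and 27.9 TPM in the shScram preadipocyte pair.

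The makeup of the D type differed between the lines more than its summed level did. The summed TPM of Ccnd1, Ccnd2 and Ccnd3 was 389 and 599.7 in the shScram preadipocyte libraries and between 482 and 586 in the other 10. Ccnd3 made up 5.47% and 23.9% of that sum in the shScram preadipocytes, 45.2% and 47.3% at MCE and 37.9% and 35.1% at Diff. In shFTO cells it made up 56.3% and 52.0% in preadipocytes, 72.1% and 72.0% at MCE and 65.3% and 66.1% at Diff. The Ccnd3 share was thus higher in each shFTO library than in any shScram library. The share of Ccnd1 ran the other way, from 32.9% to 43.4% in the shScram libraries and from 10.0% to 22.8% in the shFTO libraries, again without overlap.

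**Figure D3:**
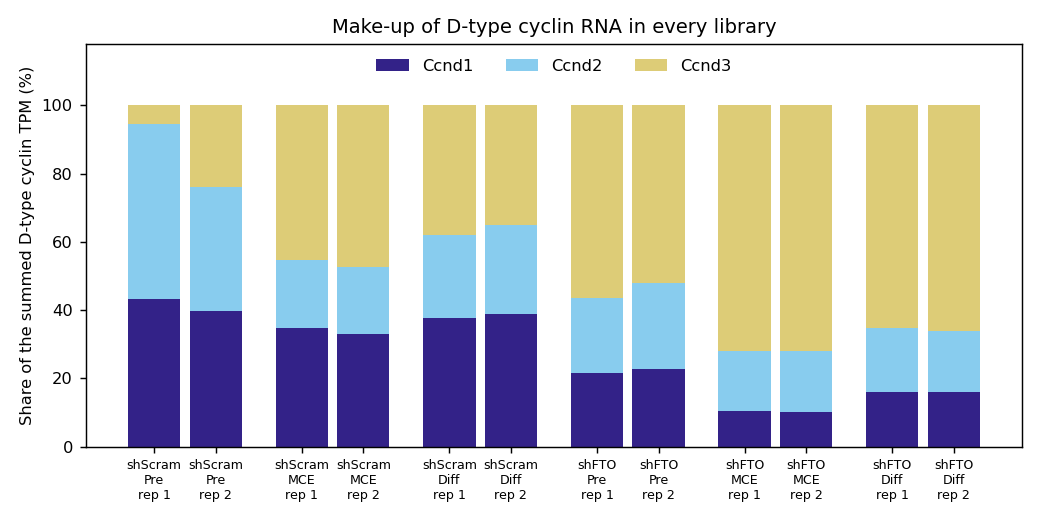
Percent of the summed TPM of the D type cyclins held by Ccnd1, Ccnd2 and Ccnd3 (stacked bars, vertical axis from 0) in each of the 12 libraries. Ccnd3 held 52.0% or more in every shFTO library and 47.3% or less in every shScram library.

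Ccne1 (ENSMUSG00000002068; chromosome 7, 38097984 to 38107534) encodes cyclin E1, the CDK2 partner at the start of DNA replication. The shScram libraries held 18.4 and 21.4 TPM in preadipocytes, 14.6 and 18.3 TPM at MCE, and 13.6 and 13.0 TPM at Diff. The shFTO libraries held 36.7 and 32.0 TPM, then 51.9 and 53.1 TPM, then 27.7 and 30.1 TPM. The 6 groups were all apart, with the 3 shFTO groups on top and shFTO at MCE the highest. Ccne1 was higher in shFTO by 0.76 in preadipocytes (SE 0.15, limma adjusted p = 0.00816), 1.63 at MCE (SE 0.15, adjusted p = 0.000133) and 1.07 at Diff (SE 0.15, adjusted p = 0.00112), or 1.72-fold, 3.20-fold and 2.18-fold in the means. It rose from Pre to MCE in shFTO cells (0.60, SE 0.15, limma adjusted p = 0.014), where the shScram value was -0.27 (SE 0.15, adjusted p = 0.171) and passed as a fall without replicate 1 of the preadipocytes (-0.37, adjusted p = 0.0491). The MCE to Diff steps differed by -0.56, which passed without either shScram preadipocyte library (limma adjusted p = 0.0390 to 0.0391). The Pre to MCE steps of the lines differed by 0.87 (SE 0.21, limma adjusted p = 0.0475). That call was lost without any 1 of the 10 libraries outside the shScram preadipocytes (differences of 0.72 to 1.03). The preadipocyte call was lost without replicate 1 of shFTO (limma adjusted p = 0.0718).

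Ccne2 (ENSMUSG00000028212; chromosome 4, 11191351 to 11204779), its close relative, behaved differently between the stages. It lay between 5.06 and 8.94 TPM in 10 of the 12 libraries and reached 17.9 and 21.4 TPM in the 2 shFTO libraries at MCE. The shScram libraries held 7.22 and 6.94 TPM in preadipocytes, 8.30 and 8.94 TPM at MCE, and 5.37 and 6.75 TPM at Diff. The shFTO libraries held 5.06 and 6.005 TPM in preadipocytes and 6.13 and 5.80 TPM at Diff, and these groups overlapped with each other and with shScram at Diff. Only at MCE did the lines differ beyond the threshold (1.10, SE 0.16, limma adjusted p = 0.00184), a 2.28-fold higher mean in shFTO. Within shFTO cells Ccne2 rose by 1.66 from Pre to MCE (SE 0.16, limma adjusted p = 0.000104) and fell by 1.56 from MCE to Diff (SE 0.16, adjusted p = 0.000273). Both steps differed from those in shScram cells, by 1.41 (SE 0.22, limma adjusted p = 0.0101) and by -1.11 (SE 0.22, adjusted p = 0.0397). The first of these calls was lost without shFTO replicate 2 or shScram replicate 1 at MCE or shFTO replicate 1 in preadipocytes (limma adjusted p = 0.0527 to 0.0654), and the second without any 1 of the 10 libraries outside the shScram preadipocytes (adjusted p = 0.0632 to 0.186). In shScram cells the value from MCE to Diff, -0.45, passed as a fall without either shScram preadipocyte library (limma adjusted p = 0.0246 to 0.0251). An exon stretch of 609 bases overlaps Ints8 on the opposite strand, which held 23.9 to 42.9 TPM and 23.9 and 24.3 TPM in the 2 libraries where Ccne2 was high.

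Summed, the E type stood at 19.0 to 28.3 TPM in the shScram libraries and at 33.8 to 74.5 TPM in the shFTO libraries, without overlap. Ccne1 was the larger part throughout, with 63.7% to 75.5% of the sum in shScram and 71.3% to 87.9% in shFTO libraries. No rise from Pre to MCE was called for either E type cyclin in shScram cells, where the A, B and F type cyclins rose, but with a correction for GC content, chosen after seeing the data, Ccne2 did pass (0.99 against 0.25 uncorrected, limma adjusted p = 0.00261).

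Ccna2, Ccnb1, Ccnb2 and Ccnf followed a shared course in shScram cells, up at MCE and down at Diff. Their summed TPM was 157 and 161 in shScram preadipocytes, 333 and 322 at MCE, and 67.4 and 66.0 at Diff. In shFTO cells the sums were 129 and 128, then 247 and 236, then 124 and 143. The shFTO libraries were thus below the shScram libraries in preadipocytes and at MCE, and above them at Diff.

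**Figure D4:**
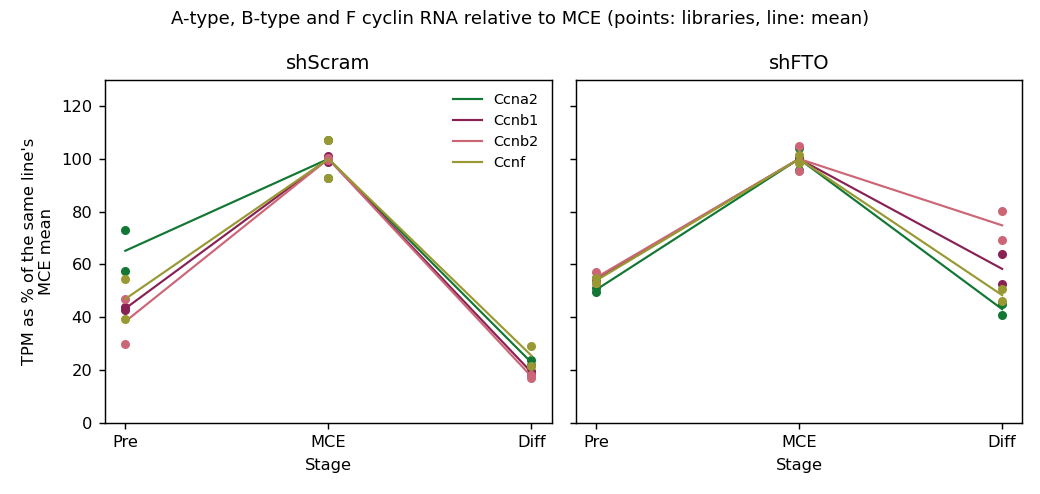
TPM of Ccna2, Ccnb1, Ccnb2 and Ccnf relative to the mean of the MCE group of the same line (percent, vertical axis) in each library, by stage. At Diff the shScram means were 22.8%, 19.1%, 17.5% and 25.4% of the MCE means and the shFTO means 43.1%, 58.3%, 74.8% and 48.4%, in the same order of genes.

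Ccnb1 (ENSMUSG00000041431; chromosome 13, 100778650 to 100786570) and Ccnb2 (ENSMUSG00000032218; chromosome 9, 70407692 to 70421547) encode cyclins B1 and B2, the CDK1 partners whose destruction lets cells leave mitosis. Ccnb1 held 54.6 and 53.3 TPM in shScram preadipocytes, 126 and 123 TPM at MCE, and 24.5 and 23.1 TPM at Diff. In shFTO cells it held 43.7 and 44.2 TPM, then 81.1 and 80.3 TPM, then 42.4 and 51.7 TPM. At Diff the shFTO libraries overlapped those of the shFTO preadipocytes, whereas the shScram libraries were the lowest of all. The knockdown difference of Ccnb1 was -0.62 at MCE (SE 0.12, limma adjusted p = 0.00712) and 0.95 at Diff (SE 0.12, adjusted p = 0.000676), and it was -0.29 in preadipocytes (SE 0.12, adjusted p = 0.0934). From Pre to MCE Ccnb1 rose by 1.19 in shScram cells (SE 0.12, limma adjusted p = 0.000109) and by 0.86 in shFTO cells (SE 0.12, adjusted p = 0.00077). The means rose 2.31-fold and 1.83-fold. From MCE to Diff Ccnb1 fell by 2.34 in shScram cells (SE 0.12, limma adjusted p = 1.35e-05) and by 0.77 in shFTO cells (SE 0.12, adjusted p = 0.0019). The difference between these steps, 1.57 (SE 0.17, limma adjusted p = 0.00246), was called in all 23 alternative settings. The MCE call was lost without either shFTO or without replicate 1 of the shScram MCE libraries (limma adjusted p = 0.0539 to 0.0639).

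Ccnb2 held 23.7 and 37.5 TPM in shScram preadipocytes, 79.4 and 80.0 TPM at MCE, and 13.5 and 14.4 TPM at Diff. In shFTO cells it held 28.0 and 26.0 TPM, then 51.5 and 46.8 TPM, then 34.1 and 39.5 TPM. The shFTO libraries at Diff lay above those of shFTO preadipocytes, with no overlap, and more than doubled the shScram level of the same stage (2.64-fold in the means). Of the 9 cyclins Ccnb2 had the largest log2 difference between the lines at Diff, 1.33 (SE 0.19, limma adjusted p = 0.00149). At MCE it was lower in shFTO by a log2 difference of -0.69 (SE 0.19, limma adjusted p = 0.0393), and this call was lost without any 1 of the 10 libraries outside the shScram preadipocytes (adjusted p = 0.0606 to 0.211). It rose from Pre to MCE by 1.39 in shScram cells (SE 0.19, limma adjusted p = 0.000761) and by 0.84 in shFTO cells (SE 0.19, adjusted p = 0.0111). From MCE to Diff Ccnb2 fell by 2.43 in shScram cells (SE 0.19, limma adjusted p = 0.00011), and the value in shFTO cells was -0.41 (SE 0.19, adjusted p = 0.153, and 0.00405 and 0.00414 without either shScram preadipocyte library). Between Pre and Diff the shFTO value of 0.43 passed as a rise without either of those libraries (limma adjusted p = 0.00400 to 0.00410), and the difference between the lines from Pre to MCE passed without replicate 2 (-0.87, adjusted p = 0.000679). The MCE to Diff steps differed by 2.02 (SE 0.27, limma adjusted p = 0.00649), in all 23 alternative settings. A pseudogene row, Ccnb2-ps, held 1.15 to 2.68 TPM, and Ccnb1-ps and Ccnd3-ps held 0.465 TPM or less.

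Ccna2 (ENSMUSG00000027715; chromosome 3, 36564865 to 36572150) encodes cyclin A2. It held 66.7 and 52.7 TPM in shScram preadipocytes, 98.1 and 85.02 TPM at MCE, and 20.2 and 21.6 TPM at Diff. In shFTO cells it held 38.3 and 39.5 TPM, then 80.5 and 74.0 TPM, then 31.7 and 34.9 TPM. All 6 groups were apart, and the order of the lines was turned at Diff. Ccna2 was lower in shFTO preadipocytes (-0.60, SE 0.14, limma adjusted p = 0.0179) and higher in shFTO at Diff (0.65, SE 0.14, adjusted p = 0.0124), and at MCE the difference was -0.24 (SE 0.14, adjusted p = 0.311). Ccna2 rose from Pre to MCE by 0.62 in shScram cells (SE 0.14, limma adjusted p = 0.00952) and by 0.97 in shFTO cells (SE 0.14, adjusted p = 0.00111). It fell from MCE to Diff by 2.08 in shScram cells (SE 0.14, limma adjusted p = 5.48e-05) and by 1.19 in shFTO cells (SE 0.14, adjusted p = 0.000571). The difference between these steps, 0.89 (SE 0.20), missed the threshold (limma adjusted p = 0.0601) and passed it without either shScram preadipocyte library (adjusted p = 0.00154). From Pre to MCE the steps of Ccna2 differed by 0.36, and by 0.52 without replicate 2 of the shScram preadipocytes (limma adjusted p = 0.0113). The preadipocyte call was lost without either shFTO preadipocyte library (limma adjusted p = 0.0736 to 0.101) and the Diff call without either shScram or without replicate 2 of the shFTO Diff libraries (adjusted p = 0.0569 to 0.10). Exosc9, whose exons share 510 bases with it on the opposite strand, held 49.9 and 35.8 TPM in shScram preadipocytes and 13.2 to 24.3 TPM in the other libraries.

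Ccnf (ENSMUSG00000072082; chromosome 17, 24222198 to 24251484) encodes cyclin F. The shScram libraries held 12.5 and 17.2 TPM in preadipocytes, 29.3 and 33.8 TPM at MCE, and 9.23 and 6.84 TPM at Diff. The shFTO libraries held 18.9 and 18.3 TPM, then 34.0 and 35.0 TPM, then 15.9 and 17.4 TPM. Unlike the B type, Ccnf had its highest libraries in shFTO at MCE, although the log2 difference between the lines there was 0.13 (SE 0.18, limma adjusted p = 0.714). It was higher in shFTO at Diff (0.98, SE 0.18, limma adjusted p = 0.00554), a call lost without replicate 2 of either line at Diff (adjusted p = 0.0516 and 0.0536). It rose from Pre to MCE by 1.06 in shScram cells (SE 0.18, limma adjusted p = 0.00242) and by 0.86 in shFTO cells (SE 0.18, adjusted p = 0.00755). From MCE to Diff it fell by 1.86 in shScram cells (SE 0.18, limma adjusted p = 0.000284) and by 1.01 in shFTO cells (SE 0.18, adjusted p = 0.00428), and the difference of these steps was 0.85 (SE 0.26, adjusted p = 0.144, and 0.0117 and 0.0119 without either shScram preadipocyte library).

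The promoters of the B type cyclins and of Ccnf are shown because these genes moved together over the stages. Promoter windows of RefSeq on GRCm38.p6, from 250 bases before the gene start to 50 after it, were matched for 5 of the 9 cyclins (Ccnb1, Ccnb2, Ccnf, Ccne1 and Ccnd3, the last with 2 windows). Ccnd1, Ccnd2, Ccne2 and Ccna2 had no entry. Both strands were searched for CCAAT, the box bound by NF-Y, for TTTGAA, the core of the cell cycle genes homology region, and for TTTNNCGC, an E2F site. Positions are counted from the RefSeq start of each window, negative before it. That start differs from the gene ends given above, which come from another annotation: it lies inside the given interval for Ccnb1 and Ccnf and just outside it for Ccnb2, so the Ccnb1 match at -67 and the Ccnf match at -14 fall within those intervals. In the following 30-base stretches, all on the minus strand of the chromosome, capitals mark the match.
Ccnb2, CCAAT at -87, chr9:70421624-70421653: aatacaagccagCCAATcaacgtgcagaaa
Ccnb2, CCAAT at -54, chr9:70421591-70421620: cttccagtctagCCAATgggttgcgcgcgc
Ccnb2, CCAAT at -21, chr9:70421558-70421587: gcgtgcgtctacCCAATagtgcgtcagcgg
Ccnb2, TTTGAA at 5, chr9:70421533-70421562: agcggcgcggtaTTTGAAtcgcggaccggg
Ccnb1, CCAAT at -99, chr13:100786568-100786597: gaacccgcggcgCCAATgggaagagagcga
Ccnb1, CCAAT at -67, chr13:100786536-100786565: gccacgaactggCCAATgaggagcgagcgg
Ccnf, CCAAT at -147, chr17:24251539-24251568: acgagcgataagCCAATagacagccagcgt
Ccnf, CCAAT at -107, chr17:24251499-24251528: gtcctggtgtagCCAATcacaaatgcccag
Ccnf, TTTGAA at -14, chr17:24251406-24251435: gctcccggcgcgTTTGAAaacggggcgggg

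The 3 CCAAT boxes of Ccnb2 stood 33 bases apart from start to start, the 2 of Ccnb1 stood 32 bases apart and the 2 of Ccnf 40 bases. Among 32851 promoter windows of all genes, 37.4% held a CCAAT and 11.7% held at least 2 of them. TTTGAA was found 2 times in the window of Ccnb2, also at -167, 2 times in that of Ccnf, also at -130, and not in that of Ccnb1, against 17.9% of all windows. Both motifs together occurred in 6.95% of all windows. The second Ccnd3 window held 1 CCAAT, and no window of Ccne1 or the first of Ccnd3 held either motif. TTTNNCGC, present in 5.17% of all windows, was found in none of the 6. A match is a run of letters only, and binding was not measured here.

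**Figure D5:**
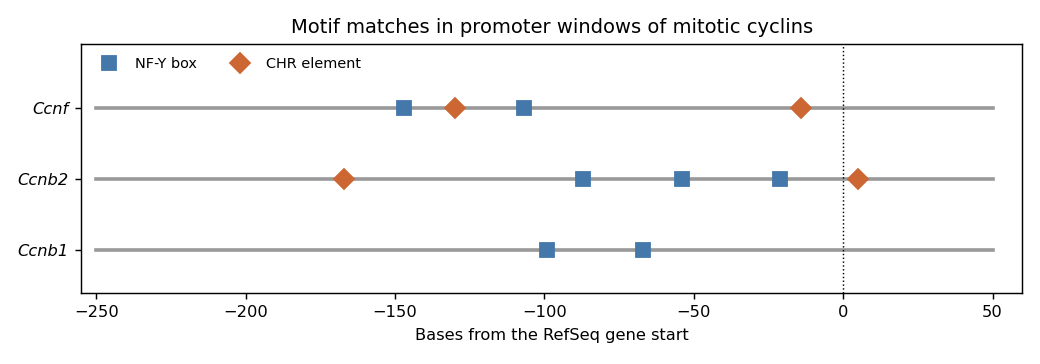
Positions of CCAAT and TTTGAA matches (markers) in the promoter windows of Ccnb1, Ccnb2 and Ccnf, in bases from the RefSeq gene start (horizontal axis). Ccnb2, Ccnb1 and Ccnf held 3, 2 and 2 CCAAT boxes. The windows of Ccne1 and Ccnd3 are not drawn.

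Over the 12 libraries the mitotic cyclins resembled each other. Pearson's r of log2(TPM + 1) was 0.96 between Ccnb1 and Ccnb2, 0.95 between Ccna2 and Ccnb1 and 0.91 between Ccnf and either B type cyclin, 0.85 between Ccna2 and Ccnb2 (0.93 without replicate 1 of the shScram preadipocytes), while Ccnd1 and Ccne1 ran opposite to each other (-0.87). Among 10790 other genes with a mean of at least 5 TPM, the nearest in pattern to Ccnb1 were Kpna2 (0.99), Kif2c (0.98) and Knstrn (0.98), to Ccnb2 Bub1b (0.98), Kif2c (0.96) and Cenpa (0.96), to Ccna2 Racgap1, Dlgap5 and Kpna2 (0.98 each) and to Ccnf Hmgb2, Plk1 and Incenp (0.97 each). The nearest to Ccnd1 were Bid (0.98), Daam2 (0.96) and Pacsin2 (0.96), to Ccnd2 mt-Tl1 (0.98), Wdr77 (0.97) and Lrpprc (0.96), and to Ccnd3 Tkfc, Emc10 and Zdhhc7 (0.99 each). For the E type they were Inhba (0.97), Bhlhe40 (0.97) and Rer1 (0.96) with Ccne1 and Nfatc1 (0.98), Etv6 (0.94) and Cd9 (0.94) with Ccne2. These are descriptions over libraries that share groups, and each list is the top of a ranking. Without replicate 1 of the shScram preadipocytes the nearest to Ccnd3 were Ptpn1, Tmem203 and Ppdpf (0.98 each), the first in rank became Cdc25a for Ccne1, Knstrn for Ccnb2 and Rangap1 for Ccnf, and the first for the other 5 stayed in place.

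The partners and regulators of the cyclins were counted from gene lists, with differences as shFTO minus shScram in log2(TPM + 1), and the medians over all genes tested were 0.08, 0.05 and 0.03 at the 3 stages. Of all genes 28.2%, 17.8% and 21.2% were called at these stages, and most counts of the partner and regulator lists lay near or below those shares. Those further above were the kinase list at Diff, the inhibitor list in preadipocytes, the E2F list at MCE, and the MuvB and ubiquitin ligase lists at Diff. The E2F and MuvB lists in preadipocytes, the ubiquitin ligase list at MCE and the other cyclins at Diff lay slightly above. The lists are small, and none was tested as a set. Their calls without single libraries are not given here, although the preadipocyte calls rest on the shScram pair that stood apart. In the fit of only the preadipocyte libraries limma called 0 of all genes tested. Of the 6 kinase and Cks subunit genes, Cdk2 was higher in shFTO at MCE (0.79, SE 0.17, limma adjusted p = 0.0126), and Cks1b (0.65) and Cks2 (0.94) were higher at Diff (list medians 0.00, -0.08 and 0.48 at Pre, MCE and Diff). Of the 6 tested CDK inhibitors 3 were higher in shFTO preadipocytes, Cdkn1a (1.03), Cdkn2c (1.19) and Cdkn2d (1.37), and at Diff Cdkn2d was higher (1.45, list medians 0.80, 0.03 and 0.25). The summed TPM of the inhibitor list was 635 and 1656 in the shScram preadipocyte libraries and 1464 to 1483 in the shFTO ones, so the lines overlapped there. Cdkn1a encodes p21, which blocks CDK2, and the Cdkn2 genes encode inhibitors of CDK4 and CDK6. Within shFTO cells Cdkn1a and Cdkn2b fell from Pre to MCE, by 1.19 and 1.22 on the log2 scale, with 28.7% of all genes called.

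Among 10 pocket protein and E2F genes, E2f8, a repressor of the E2F group, was higher in shFTO at all 3 stages (1.24, 1.29 and 1.61). E2f1 (1.01) and E2f2 (1.24), activators of S phase genes including the E type cyclins, were higher in preadipocytes. At MCE Rbl1 was higher (0.83) and E2f5 lower (-0.81), and at Diff E2f7 was higher (0.91), with list medians of 0.05, 0.41 and 0.29. Of 7 subunits and partners of the MuvB complex, which acts on promoters of mitotic genes, Mybl2 was higher in shFTO at all 3 stages (0.73, 1.41 and 1.17), Lin37 in preadipocytes (0.90) and Foxm1 at Diff (0.85), with list medians of 0.19, 0.41 and 0.20. In each line 3 of the 7 fell from MCE to Diff, where 25.2% of all genes were called in shScram and 26.7% in shFTO cells. Mybl2 was among them, with falls of 1.09 in shScram and 1.33 in shFTO cells.

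The next list held genes of ubiquitin ligases that destroy cyclins and regulators of these ligases, 9 of them tested. Of these, Ube2s was higher in shFTO preadipocytes (1.71). At MCE Skp2 (0.81) and Fbxo5 (0.75), an inhibitor of such a ligase, were higher. At Diff Ube2c (2.01) and Skp2 (0.75) were higher and Fbxw7, which targets cyclin E, was lower (-0.76, SE 0.18, limma adjusted p = 0.0167), with list medians of 0.20, 0.09 and 0.60. Of 12 tested cyclins outside the 9, Ccng2 (-0.95) and Ccnl1 (-0.90) were lower in shFTO preadipocytes, Ccnt1 was higher at MCE (0.58), and Ccnt1 (0.53), Ccnt2 (0.46) and Ccnk (0.69), partners of transcription kinases, were higher at Diff (list medians -0.19, 0.08 and -0.09).

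Markers of division and of fat cells also differed between the groups, and their part in the cyclin differences was not tested. Of 12 proliferation markers 9 were higher in shFTO at Diff (median difference 1.00, with 21.2% of all genes called), among them Aurkb (1.90) and Aurka (1.56). At MCE 5 of the 12 were higher (17.8% of all genes called), with Rrm2 (1.52) and Mcm5 (1.16) at the top, and in preadipocytes 4 were higher and 3 lower (28.2% of all genes called), the latter including Mki67 (-0.78) and Birc5 (-0.68). All 12 fell from MCE to Diff in both lines, where 25.2% of all genes were called in shScram and 26.7% in shFTO cells. The median fall of the 12 was 2.05 in shScram and 1.43 in shFTO cells on the log2 scale. Their summed level at Diff was 312 to 332 TPM in shScram and 513 to 526 TPM in shFTO libraries. It was also higher in shFTO in preadipocytes (612 to 620 against 578 to 602 TPM) and at MCE (1542 to 1582 against 1142 to 1185 TPM). The summed A, B and F type cyclins were lower in shFTO at these earlier stages. Of 8 adipocyte markers 6 were lower in shFTO at Diff (median -2.01), among them Cidec (-4.12) and Adipoq (-3.72), and their summed level was 1431 to 1448 TPM in shScram and 446 to 479.9 TPM in shFTO libraries. Of 8 fibroblast and preadipocyte markers 2 were higher and 2 lower at Diff, and they summed to 7978 TPM or more in every library.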

How the data were processed

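RNA of 3T3-L1 cells was sequenced in 12 libraries, and whether their fragments were size-selected was not clear from the sources used here. According to the study's methods and the labels, the authors used HISAT2 2.1.0 for alignment to GRCm38 after trimming by Trim Galore 0.6.5, and StringTie 2.1.4 with Ensembl release 102 for gene levels, and the deposited values are TPM per gene and library, which keep no read depth, so the precision that depth gives is unknown. Counts behind the authors' own DESeq2 1.30.1 comparisons, m6A libraries and rhein-treated cells are not analysed here. Samples were grouped by their titles.

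Genes at 1 TPM or more in 2 or more libraries were fitted on log2(TPM + 1), a scale that understates the change of low genes, with limma 3.58.1 in R 4.3.3 (1 mean per group, all 12 libraries, 6 residual degrees of freedom, trended empirical Bayes, Benjamini-Hochberg over all genes tested in each comparison, adjusted p under 0.05). The test was checked on simulated data of 15968 genes, where 200 were changed by 1 on the log2 scale at MCE. Of these 67 were recovered, with 4 false calls among the unchanged genes. No other gene was changed there and each gene had the same spread in all groups, unlike the data, so these rates need not hold here. Fto was tested by exact permutation. Tables and figures were made in Python 3.11.15 with pandas 2.3.3, numpy 2.4.6, scipy 1.17.1 and matplotlib 3.10.9. GC contents and gene positions came from the GENCODE M21 annotation of GRCm38, and promoters from RefSeq.

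All 9 cyclins are named with values. From the 9 other gene lists, up to 2 called genes with the largest and 2 with the smallest difference are named in a comparison. Genes alike in pattern are the 3 with the highest Pearson's r. The cyclins and lists were chosen with earlier results of these data known. The 23 alternatives comprised a pseudocount of 0.1, no filter, a mean TPM of at least 5, other scalings and fits, the study's fold limits, leaving out each library and a GC correction. The fold limits were used with an unadjusted p under 0.05. Replicate numbers did not pair the samples. Columns of the table that no sample could be given numbered 0. Protein sequences were not analysed here.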

Additional observations from a re-analysis of the deposited data

Results flagged for a closer look

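For 6 results the step between stages differed between the lines by the test of the difference itself (limma, adjusted p under 0.05, difference as shFTO minus shScram in log2(TPM + 1)). From Pre to MCE these were Ccnd2 (0.69), Ccne1 (0.87) and Ccne2 (1.41), all of them more positive in shFTO cells. From MCE to Diff they were Ccne2 (-1.11), Ccnb1 (1.57) and Ccnb2 (2.02). The values of Ccnb1 and Ccnb2 were called in all 23 alternative settings, whereas Ccnd2, Ccne1 and the second Ccne2 value lost their calls without any 1 of the 10 libraries outside the shScram preadipocytes.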

How the results depend on the processing

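Fto was lower in shFTO without each library in turn. Of 1219 recomputed values of called cyclin differences 1065 kept their direction and their side of the threshold, 154 kept only their direction, and none turned. Of those not called 79 passed the threshold and 22 turned. Leaving out 1 library at a time gave 1 to 7 called cyclins in preadipocytes, 3 to 6 at MCE and 4 to 8 at Diff between the lines. It gave 4 to 7 from MCE to Diff in shScram, 4 to 9, 5 to 8 and 0 to 3 for Pre to MCE, MCE to Diff and Pre to Diff in shFTO, and 0 to 7 and 2 to 7 for the 2 differences between steps. The values that turned this way ranged, between the lines, from -0.46 to 0.18 for Ccnb2 in preadipocytes, -0.038 to 0.026 for Ccnd2 at MCE and -0.15 to 0.13 for Ccne2 at Diff. For Ccnd1 in shScram they ranged from -0.43 to 0.065 from Pre to MCE and -0.31 to 0.18 from Pre to Diff, and for shFTO from Pre to Diff from -0.0087 to 0.20 for Ccne2 and -0.053 to 0.23 for Ccnb1. The step differences of Ccnf from Pre to MCE ran from -0.41 to 0.020 and of Ccnd3 from MCE to Diff from -0.063 to 0.16.

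Fits of only the libraries compared called 0 cyclins in preadipocytes (3 at an unadjusted p under 0.05), and for shScram 0 from Pre to MCE and 0 from Pre to Diff (4 each). They called 9 for shFTO from MCE to Diff, and 0 (4) and 7 for the 2 step differences. Fewer samples set the spread in these fits, and the cause of the changed counts was not tested. The study's fold limits of 2 and 0.5 were used with an unadjusted p under 0.05, in place of the adjusted threshold. They called 1, 3 and 3 cyclins between the lines and 1, 3 and 0 for shFTO from Pre to MCE, MCE to Diff and Pre to Diff. For the step difference from Pre to MCE they called 1. For shFTO from Pre to Diff 1 was called with no filter and 1 without the trend, which also left 1 for the step difference from Pre to MCE. The replicate block gave 1 and 1 for these comparisons and 2 for the step difference from MCE to Diff, and moved no other count by over 1.5 times. Same-numbered libraries did not deviate together (correlations from -0.29 to 0.17).

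Median-ratio scaling turned Ccnd1 in shScram, to 0.041 from Pre to MCE and -0.15 from MCE to Diff, and quantile normalization turned Ccne2 in shFTO from Pre to Diff, to -0.033. Under median-ratio scaling the share of higher calls among all genes went from 31.1% to 53.1% and from 79.3% to 51.4% for the 2 steps of shScram, and from 30.6% to 50.2% and from 75.7% to 54.8% for those of shFTO. A correction of log2 values for GC content, chosen after seeing the data, called 5 cyclins for the step difference from MCE to Diff. It turned Ccne2 between the lines (0.27 in preadipocytes, 0.17 at Diff) and from Pre to Diff (0.050 in shScram, -0.054 in shFTO), Ccnd1 in shScram from MCE to Diff (-0.091), Ccnf in preadipocytes (-0.056), and the step differences of Ccnf from Pre to MCE (0.11) and Ccnd3 from MCE to Diff (-0.033). The causes of these changes were not tested. Over all alternatives the genes called numbered 0 to 9991, 1198 to 6559 and 1573 to 7284 between the lines at the 3 stages, 504 to 10284, 1597 to 8301 and 414 to 9505 for the steps of shScram and 2531 to 8145, 2002 to 8684 and 1411 to 6829 for those of shFTO (Pre to MCE, MCE to Diff, Pre to Diff), and 239 to 8359 and 125 to 2739 for the step differences. With 2 libraries per group and no read depth, small differences could not be resolved.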
